A study of Mus musculus with 5 samples.

Results

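Glutamate receptor genes were described in single spiral ganglion neurons, which relay sound from cochlear hair cells to the brain. The 10 genes were chosen by name, as a gene family: Gria2, Gria3 and Gria4 (AMPA receptor subunits), Grin1 (the NMDA receptor subunit that every NMDA receptor needs), Grik2, Grik4 and Grik5 (kainate receptor subunits), Grm7 and Grm8 (metabotropic receptors) and Grid1 (a delta receptor). All 10 were found among the 14715 genes measured in 1954 cells. The control mice carried bhlhb5-Cre/+ and Ai14/+, and the CKO mice carried both of these and Runx1F/F, so the groups share the Cre and the tdTomato reporter and differ in the floxed gene for the transcription factor Runx1. Mice of both sexes were used at postnatal days 30 to 33, and reporter-positive neurons were sorted and put through a droplet assay that counts each captured RNA molecule once at its 3' end, as a unique molecular identifier (UMI). The sort depends on bhlhb5-Cre, and the labels do not say how many animals each sample pooled. The labels list 2 control and 3 CKO samples, but the deposited table ties each cell to a genotype only, so each genotype is 1 pool with no replicates and no difference between pools was given a p-value.

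The control pool held 1070 cells with a median of 38085 UMIs and the CKO pool 884 cells with a median of 44120.5 UMIs, over a range of 10379 to 100856 UMIs per cell. Cells follow each other in the table in 5 stretches of ascending barcodes, of which stretches 2 and 5 are control and stretches 1, 3 and 4 are CKO; no source says whether a stretch is a sample, so values by stretch are a description, and 1 barcode occurs more than once. The RNA of Runx1 was not lower in the CKO pool (1.68 UMIs per 10000 against 1.23 in control), and the exons between the loxP sites are not named in the labels, so 3' counts check neither the deletion nor the genotype. Neuron classes were set in order: type II at a Dupd1 level of at least 1 UMI per 10000, then type Ic at a Lypd1 level of at least 3, then type Ia at a Calb2 level of at least 150, and type Ib for the rest. None of the 10 receptor genes entered the class rule. Markers outside the rule followed it in control: the type II genes Prph and Th had levels of 2.83 and 5.09 in type II neurons, Pou4f1 had 1.17 in type Ic, and Calb1 and Ttn were highest in type Ib (1.31 and 1.27). In the CKO pool Calb1 was less separated, at 1.90 in type Ia, 2.56 in type Ib and 1.46 in type Ic. The class shares also differed: the control pool had 242 type Ia, 395 type Ib, 314 type Ic and 119 type II neurons, and the CKO pool 384, 216, 132 and 152. The border between types Ia and Ib cuts a continuous range, since 48 of 637 control cells and 108 of 600 CKO cells on either side of it lay within 1.2-fold of the Calb2 threshold.

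At the first synapse of hearing, hair cells release glutamate onto these neurons. AMPA receptors carry the fast current there, and those without the Gria2 subunit pass calcium. NMDA receptors pair Grin1 with other Grin subunits, kainate receptors pair Grik1 to Grik3 with the high-affinity subunits Grik4 and Grik5, and Grm7 and Grm8 couple to inhibitory G proteins, mostly at presynaptic endings. Type I neurons contact inner hair cells and are split into types Ia, Ib and Ic, while type II neurons contact outer hair cells.

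Promoter sequences are shown for 3 genes that the results turn on, since the floxed gene of the CKO mice encodes a transcription factor. They come from RefSeq (GRCm38.p6, the same assembly as mm10) and run from 250 bases before to 50 bases after an annotated start, 5′ to 3′ on the gene's strand. Entries were found for 8 of the 10 genes, with 11 windows in all, because some genes have several starts. Grin1 is shown because its window holds the core Runx motif TGTGGT, read here on the other strand as ACCACA and printed in capitals, 139 bases upstream of the start (chr2:25319138-25319437, minus strand). Grik4 is shown as the gene with the largest genotype difference over all neurons (chr9:42944322-42944621, minus strand), and Grm8 as the gene with the largest class difference (the outermost of 3 windows, chr6:28135097-28135396, minus strand).
Grin1: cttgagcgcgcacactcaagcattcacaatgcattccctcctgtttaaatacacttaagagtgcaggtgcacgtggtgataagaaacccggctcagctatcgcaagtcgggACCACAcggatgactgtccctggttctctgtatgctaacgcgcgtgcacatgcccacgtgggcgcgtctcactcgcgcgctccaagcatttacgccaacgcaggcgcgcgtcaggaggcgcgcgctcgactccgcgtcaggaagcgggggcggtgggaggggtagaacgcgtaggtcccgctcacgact
Grik4: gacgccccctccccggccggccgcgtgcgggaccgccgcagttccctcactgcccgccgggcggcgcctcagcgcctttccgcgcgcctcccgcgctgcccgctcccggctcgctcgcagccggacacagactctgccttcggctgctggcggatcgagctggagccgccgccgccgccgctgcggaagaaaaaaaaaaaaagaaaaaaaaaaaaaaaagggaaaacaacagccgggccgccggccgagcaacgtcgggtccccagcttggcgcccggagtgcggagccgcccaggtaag
Grm8: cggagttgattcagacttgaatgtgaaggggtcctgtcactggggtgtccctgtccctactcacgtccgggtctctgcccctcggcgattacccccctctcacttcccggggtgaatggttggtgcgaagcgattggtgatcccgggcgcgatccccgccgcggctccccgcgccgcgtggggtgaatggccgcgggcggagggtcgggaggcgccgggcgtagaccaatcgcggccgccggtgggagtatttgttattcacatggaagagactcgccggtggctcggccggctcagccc
The motif was found on either strand in 1 of the 11 windows, against 16.8% of 32851 promoter windows of the same length. The Grin1, Grik4 and Grm8 windows printed here were rich in G and C (60.7%, 70.0% and 67.0%, against a median of 52.7% over all windows). A motif match is a description of the letters in the window and says nothing of binding.

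Levels below are means over cells of UMIs per 10000 UMIs of the cell. A difference is log2 of the ratio of 2 levels after adding 0.1 to each, and a gene counts as past the fold when the levels so compared differ by at least 1.5-fold and 1 of them is at least 0.2. A gene that reaches 0.2 in 1 of the compared groups only is bound to be higher there, so directions of such genes are a description. Intervals are exact 95% intervals on UMI rates or shares, and cover counting error only. In bulk means over a pool, fewer cells of a class and less RNA per cell cannot be told apart, so each gene is also given within classes.

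**Figure D1:**
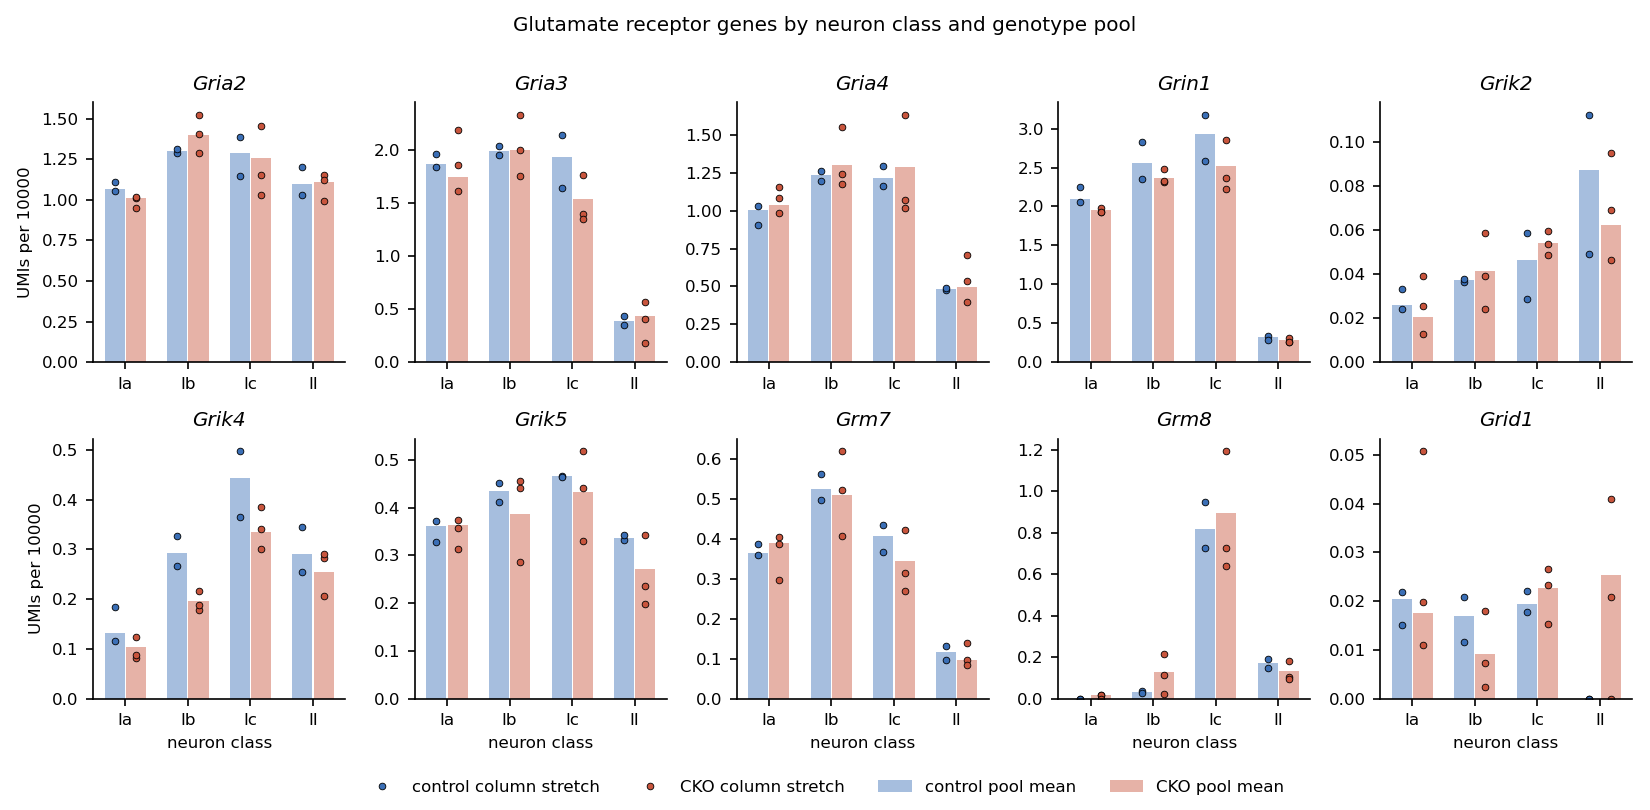
Mean level (UMIs per 10000, each panel with its own axis from 0) of the 10 genes in 4 neuron classes; bars are genotype pools and points are column stretches, 2 control and 3 CKO. Gria3, Gria4, Grin1 and Grm7 are low in type II neurons, Grik4 climbs from type Ia to type Ic, and Grm8 is highest in type Ic.

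Type II neurons had less RNA of several AMPA, NMDA and metabotropic receptor genes than type I neurons. Of the 8 genes with a level of at least 0.2, 4 were past the fold and lower in type II neurons of the control pool (Gria3, Gria4, Grin1 and Grm7), and the same 4 in the CKO pool. The background is wide here: 19.8% of the 7317 genes at that level were lower in control type II neurons by 1.5-fold or more and 19% higher, and in the CKO pool 19.3% were lower and 19.8% higher. Grm7 and Grm8 reached 0.2 in type I neurons only. Type II neurons also had fewer UMIs (a median of 25326 against 39393 in control type I). Their mean summed level of 7 neuronal marker genes was lower (77.8 against 167 to 222 in the control type I classes). Mean glial marker sums were 28.1 in control type II against 21.5 to 26.7 in the type I classes. The medians went the other way, at 0.484 in type II against 23.8 to 29.4. The part of these values in the receptor differences was not tested.

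Grin1 (chr2:25291181-25319187 in mm10) had a level of 2.57 in control type I neurons and 0.317 in control type II neurons, a UMI rate 8.05 times lower and a log2 difference of -2.68. By column stretch, type I levels were 2.09, 2.91, 2.11, 2.56 and 2.30 in stretches 1 to 5, and type II levels 0.265, 0.335, 0.306, 0.256 and 0.288. Every type I stretch was above every type II stretch, as for 25.5% of genes at that level, and the CKO pool gave -2.57.

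The AMPA receptor genes did not fall together. Gria3 (chrX:41400854-41678601) was 1.94 in control type I and 0.386 in control type II neurons (log2 -2.07; CKO -1.82), and Gria4 (chr9:4417896-4796234) was 1.17 and 0.484 (log2 -1.12; CKO -1.08). Gria2 (chr3:80681450-80802835), the subunit that blocks calcium entry, was 1.24 and 1.10, a log2 difference of -0.16 that was not past the fold, and type II was above type I in 3 of 5 stretches. The shares of these 3 genes in their summed RNA therefore shifted with class. Gria1, the other AMPA receptor gene, was not among the genes measured. Gria2 took 28.1% of the UMIs of the 3 genes in control type I neurons (27.4% to 28.8%) and 56.0% in control type II neurons (52.0% to 60.0%). In the CKO pool the shares were 27.7% (26.9% to 28.5%) and 52.8% (49.4% to 56.2%). Over the 5 stretches, the Gria2 share ran from 26.5% to 29.0% in type I and from 49.3% to 57.3% in type II neurons, so the classes did not overlap in any stretch. These are shares of RNA and not of receptors.

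**Figure D2:**
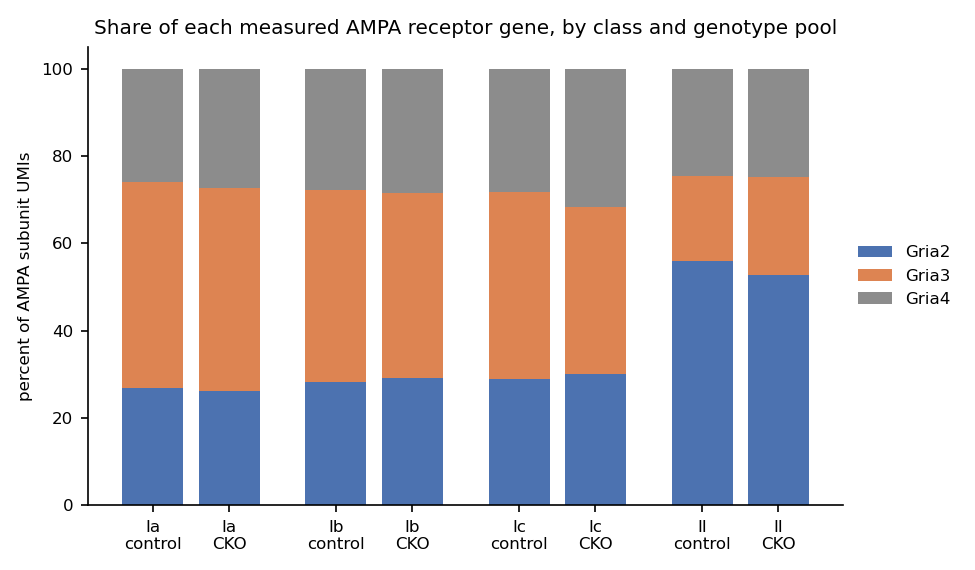
Share (percent, stacked to 100) of Gria2, Gria3 and Gria4 in the UMIs of these 3 genes, by class and genotype pool, with no error bars. The Gria2 share is 26.2% to 30.1% in the type I classes of both pools and 56.0% and 52.8% in type II neurons.

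Cells were thinned to 10000 UMIs to compare shares of cells at 1 depth. All 3 AMPA receptor genes then had a UMI in 26.0% of control type Ia, 41.0% of type Ib, 38.2% of type Ic and 8.40% of type II neurons. None of the 3 had a UMI in 15.1% of control type II neurons, against 1.65% to 2.28% in the type I classes. For Gria2 the variance over its mean between thinned control type II neurons was 1.58, where counting alone gives 1, and for the 10 genes in control type Ic it ran from 0.943 to 1.33.

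Grm7 (chr6:110645581-111567230), a metabotropic receptor of presynaptic endings, was 0.446 in control type I and 0.118 in control type II neurons (log2 -1.33; CKO -1.40). Type II levels by stretch ran from 0.0830 to 0.140 and type I levels from 0.386 to 0.492, with no overlap, as for Grin1, Gria3 and Gria4. Grik5 (chr7:25009849-25072346) was lower in type II than in type I neurons in 5 of 5 stretches, as were 35% of genes, but by little (0.336 against 0.427 in control, log2 -0.27), and Grik4 was 0.290 against 0.301. For Grik4 the CKO values were 0.255 in type II, where alone it reached 0.2, and 0.173 in type I neurons (log2 0.38; UMI rate ratio 1.57, 1.26 to 1.94). Grik2 (chr10:49094833-49788766) and Grid1 (chr14:34820108-35583379) stayed under 0.1 in every class. Grik2 in type II and type I neurons was 0.0877 against 0.0375 in control and 0.0625 against 0.0328 in the CKO pool. Grid1 had 0 UMIs in control type II neurons, and thinned shares of 0 of 119 cells allow up to 2.52%, while the CKO type II neurons had 11 UMIs.

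Other glutamate receptor genes and their partners were counted from lists of the family. Of 16 other receptor genes 8 were measured, and 3 reached 0.2 in type II against type I neurons, each of them through type II alone, so their direction was fixed by that filter. The NMDA receptor gene Grin2c had 1.19 in control type II and 0.00190 in control type I neurons, and by stretch its type II level was 0.924, 1.03, 1.54, 1.01 and 1.44. Grin3a, a subunit that lowers NMDA receptor calcium flow, had 0.694 and 0.010, and the kainate receptor gene Grik3 had 0.739 and 0.00263. The mean level of each of the 3 was above 0.49 in type II and under 0.02 in type I neurons in all 5 stretches. Grin1 made up 99.1% of the UMIs of the measured Grin genes in control type I neurons and 14.2% in control type II neurons. Grik3 made up 0.252% and 51.1% of those of the measured Grik genes. Grin2a and Grik1 were not among the genes measured, so these shares leave them out and do not give the full make-up of either family.

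Partner genes split between the classes as well. Of 17 AMPA receptor auxiliary genes 15 were measured and 7 reached 0.2, of which 2 were past the fold and higher in type II neurons and 3 lower, in both pools, where 19% of all genes were higher and 19.8% lower in control, and 19.8% and 19.3% in the CKO pool. Cacng2 (stargazin, which carries AMPA receptors to the synapse) was 0.756 in control type I and 0.00348 in control type II neurons (1 UMI), and 0.782 and 0.0196 in the CKO pool. Cacng5, of the same family, went the other way, at 0.0529 in control type I and 1.17 in control type II neurons, with type II stretches from 0.706 to 1.53. Cnih2, an AMPA receptor export factor, was also higher in type II (0.428 against 0.168), and Abhd6 and Porcn, which act on AMPA receptor assembly and surface levels, were lower (0.312 against 0.690 and 0.183 against 0.360). The kainate receptor auxiliary gene Neto2 was 0.0329 and 0.835, and its type II level by stretch was 1.03, 0.992, 0.779, 1.09 and 0.594. In the list of trafficking and editing genes, 6 of 7 measured genes reached 0.2 and 2 were past the fold, both lower in type II, against the same 19.8% of all genes: Nsf (2.73 against 7.97) and the RNA editing enzyme Adar (0.148 against 0.425). In control, Cacng2, Cacng5, Cnih2, Porcn, Neto2 and Adar reached 0.2 in 1 class only, which fixed their direction. Abhd6 and Nsf reached it in both classes. Adarb1, which edits the calcium-pore codon of Gria2 RNA, was 2.20 against 3.10 and not past the fold. Of the trans-synaptic partners 7 of 11 were measured, and the 1 at that level, C1ql3, a secreted protein that binds kainate receptors, was 1.93 against 1.68.

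**Figure D3:**
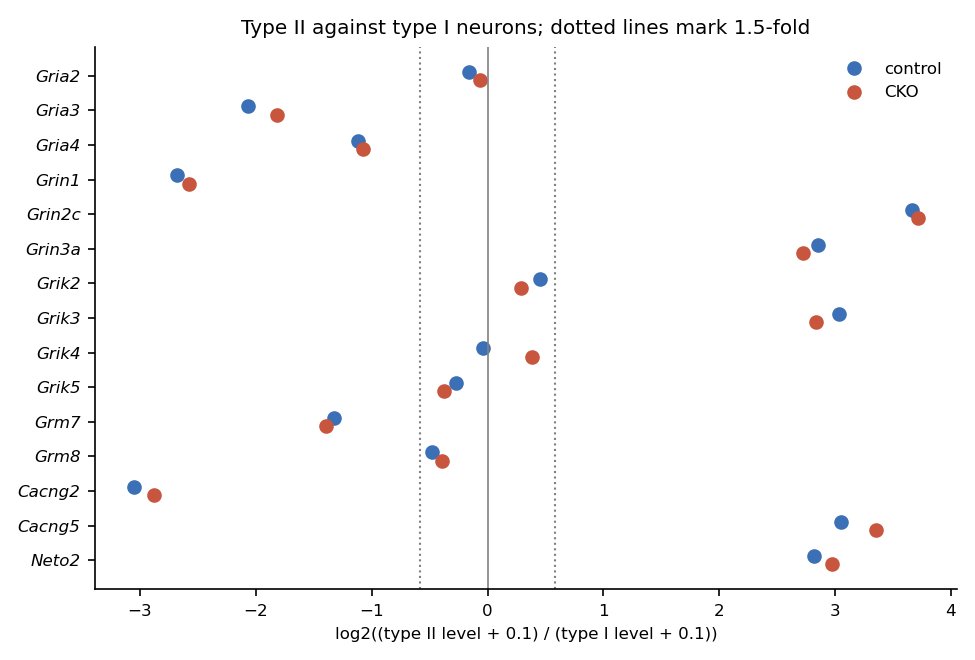
Log2 difference of type II against type I neurons (x axis, after adding 0.1 to each level) for 9 of the 10 genes and 6 related genes in the control and CKO pools; dotted lines mark 1.5-fold. Grin1, Gria3 and Cacng2 lie far to the left, and Grin2c, Grin3a, Grik3, Cacng5 and Neto2 far to the right. The pools have the same sign for each gene but Grik4, at -0.04 in control and 0.38 in the CKO pool.

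Within type I neurons, Grik4 and Grm8 separated the classes and the other genes less so. In control, 2 of the 8 genes at a level of at least 0.2 were past the fold and higher in type Ic than in type Ia (Grik4 and Grm8), against 4.45% of all 6715 genes at that level, with 2.31% lower. Both reached 0.2 in type Ic and not in type Ia, which fixed their direction. Type Ib against type Ia had 1 of 7 (Grik4; background 2.19% higher and 0.952% lower), and type Ic against type Ib had 1 of 8 (Grm8; background 1.2% higher and 1.14% lower). In these comparisons too, Grik4 reached 0.2 in type Ib and not in type Ia, and Grm8 in type Ic and not in type Ib, which fixed their direction. No member was past the fold in the other direction. In the CKO pool the same comparisons gave 2 of 8, 0 of 6 and 1 of 8, with backgrounds of 3.77%, 1.77% and 0.844% higher, and 1.71%, 0.428% and 0.844% lower. Among the type I classes of the CKO pool, Grik4 and Grm8 reached 0.2 in type Ic only, which fixed their direction there.

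Grik4 (chr9:42518135-42944493) encodes a kainate receptor subunit that works only together with Grik1, Grik2 or Grik3. Its control level was 0.131 in type Ia, 0.293 in type Ib and 0.443 in type Ic neurons, and 0.290 in type II. The UMI rate in type Ic was 3.34 times that in type Ia (2.77 to 4.05). In type Ia the 5 stretches had 0.0818, 0.184, 0.124, 0.0882 and 0.117, in type Ib 0.217, 0.326, 0.179, 0.188 and 0.267, and in type Ic 0.300, 0.498, 0.384, 0.342 and 0.366. The order Ia, Ib, Ic held in each of the 5 stretches, as it did for Grm8 and for 3.44% of genes, while the ranges over stretches of type Ia and type Ib met at 0.184 and 0.179. Of the type Ib difference, log2 0.77, less was left after thinning to 10000 UMIs (0.56) and without stretch 5 (0.58), both just under the fold. Control type Ia neurons were deeper (a median of 48726 UMIs against 37312 in type Ib and 37895.5 in type Ic).

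Grin1 followed the same order with a smaller range, at 2.10 in type Ia, 2.56 in type Ib and 2.94 in type Ic neurons of the control pool, and the type Ic level was above type Ia in 5 of 5 stretches (background 22.2%). Gria2 was lowest in type Ia (1.07, against 1.30 and 1.29), and type Ib was above type Ia in 5 of 5 stretches (background 20.9%). Gria4 gave 1.003, 1.24 and 1.22, and Gria3 gave 1.87, 1.99 and 1.94. Grm7 peaked in type Ib (0.366, 0.527 and 0.407), and Grik5 gave 0.363, 0.435 and 0.466. None of these 6 genes was past the fold between type I classes, and their levels in type Ic were above those in type Ia in the control pool. In the CKO pool Gria3 and Grm7 had the other sign (log2 -0.17 and -0.14), and Gria3 was higher in type Ic than in type Ia in 1 of 5 stretches only, with a control UMI rate ratio of 0.997.

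Grm8 (chr6:27275119-28135178) encodes mGluR8, a presynaptic receptor of high glutamate affinity. In control neurons it had 976 UMIs in 314 type Ic cells (level 0.817), 43 in 395 type Ib cells (0.0304), 55 in 119 type II cells (0.174) and 0 in 242 type Ia cells. Set against a floor of 3 counts over the type Ia cells, the type Ic rate was at least 315-fold higher. After thinning, 56.4% of control type Ic cells had a UMI (50.7% to 61.9%), 13.4% of type II, 1.77% of type Ib and 0 of 242 type Ia cells, which allows a share of up to 1.24%. The unthinned shares were 89.2%, 32.8%, 6.08% and 0%. Type Ia cells give the background for these shares.

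Likeness of pattern was ranked over the 20 groups of stretch by class for the 3 genes with the widest range over control classes. Among 3784 genes, Grm8 was most like Lypd1 (Pearson r = 0.917), Tmem47 (0.850) and Dnm3 (0.831), of which Lypd1 defines type Ic by the class rule. Among the genes most like Grin1 were the potassium channel gene Kcna1 (r = 0.995) and Ttc3 (0.993). Gria3 was most like Zdhhc3, Myh10 and Esrrg (0.976 to 0.982). The 20 groups share libraries, depth and the split between types I and II, so these values are descriptions with no test. Between the genes of the family, Gria3 and Grin1 gave 0.951, Grm7 and Grin1 0.932, and Grik4 and Grm8 0.739, while Gria2 gave at most 0.481 with any of the others.

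Between genotype pools, none of the receptor genes was past the fold. Of the 8 genes at a level of at least 0.2 over all neurons, 0 were higher and 0 lower by 1.5-fold, where 0.389% of 6678 genes were higher and 0.509% lower. The 6 that reached 0.2 in both pools had the sign of a lower level in the CKO pool, and Grik4 and Grm8 reached it in control only, which fixed their sign. The median log2 difference was -0.17 over the 8 genes and -0.03 over all 6678 genes. How many of all genes were lower in the CKO pool by any amount was not counted. The largest differences were Grik4 at 0.187 against 0.300 (log2 -0.48; UMI rate ratio 0.613, 0.556 to 0.676), Grm8 at 0.194 against 0.270 (-0.33) and Grin1 at 1.85 against 2.32 (-0.31). Gria3 gave 1.55 against 1.77, Gria2 1.16 against 1.22, Gria4 1.05 against 1.09, Grik5 0.364 against 0.417, and Grm7 0.362 against 0.410. Leaving out control stretch 2 reduced the Grik4 difference to -0.27, and leaving out control stretch 5 took it past the fold, to -0.70. For Grm8 the values were -0.05 without stretch 3, -0.17 without stretch 2 and -0.63, past the fold, without stretch 4.

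Since class shares differed between the pools, the differences were also taken at equal class shares. With the CKO class means weighted by the control class shares, an alternative chosen after seeing the data, Grik4 stood at log2 -0.31, Grin1 at -0.14, and Grm8 at 0.20 with the other sign. Gria2 was then at 0.02, Gria3 at -0.11, Gria4 at 0.07, Grik5 at -0.10 and Grm7 at -0.06. Within classes, 0 of 6 genes in type Ia, 0 of 7 in type Ib, 0 of 8 in type Ic and 0 of 6 in type II were past the fold in either direction. The backgrounds were 0.298% higher and 0.251% lower in type Ia, 0.765% and 0.36% in type Ib, 0.777% and 0.568% in type Ic, and 0.592% and 0.355% in type II.

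**Figure D4:**
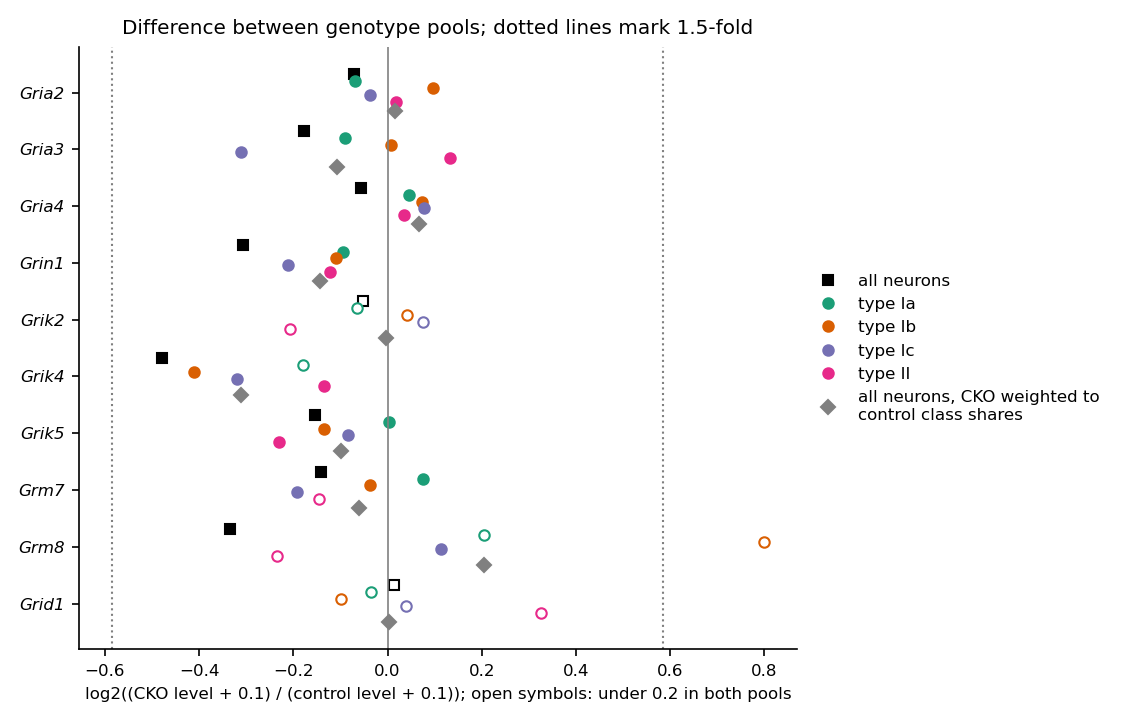
Log2 difference of the CKO against the control pool (x axis, after adding 0.1 to each level) for the 10 genes over all neurons, within 4 classes, and with CKO classes weighted to the control shares; open symbols are under 0.2 in both pools and dotted lines mark 1.5-fold. Grik4 is left of 0 in each class, and the 1 symbol past a dotted line is Grm8 in type Ib, at a level under 0.2.

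Grik4 was lower in the CKO pool in each of the 4 classes: 0.104 against 0.131 in type Ia, 0.196 against 0.293 in type Ib, 0.335 against 0.443 in type Ic, and 0.255 against 0.290 in type II. The UMI rate ratio was 0.794 (0.636 to 0.992) in type Ia, under 0.2 in both pools, and 0.742 (0.623 to 0.881) in type Ic. In type II it was 0.881 (0.658 to 1.18), an interval that holds no difference. How many of all genes were lower in each of the 4 classes was not counted. In type Ib the 3 CKO stretches had 0.217, 0.179 and 0.188 and the control stretches 0.326 and 0.267, with no overlap, and the UMI rate ratio was 0.684 (0.567 to 0.822). That order is common, since in type Ib neurons 14.8% of 6671 genes had every CKO stretch below every control stretch. In types Ia, Ic and II the stretches of the pools overlapped. Over all neurons they did not, though narrowly: the highest CKO stretch had 0.2457 and the lowest control stretch 0.2464, with a background of 13.3%. The Grik4 share of Grik UMIs in type I neurons was 37.8% in control (36.0% to 39.6%) and 28.3% in the CKO pool (26.3% to 30.4%), while within type Ib (36.7% and 30.9%) and within type Ic (46.0% and 39.7%) the counting intervals overlapped.

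Among the other genes, Gria2 and Grin1 in type Ia neurons also had every CKO stretch below every control stretch, against a background of 10.5%, with small differences (1.01 against 1.07, and 1.96 against 2.10). Gria3 in type Ic neurons was 1.54 against 1.94 (log2 -0.31), with CKO stretches of 1.39, 1.35 and 1.76 and control stretches of 2.14 and 1.64, which overlapped. Gria4 was 1.29 against 1.22 in the same class. In type II neurons, Grin1 was 0.283 against 0.317, Gria2 1.11 against 1.10, and Grin2c 1.23 against 1.19. Among partners at a level of at least 0.2, none was past the fold over all neurons: 0 of 6 AMPA receptor auxiliary genes, 0 of 6 trafficking and editing genes and 0 of 1 trans-synaptic gene, C1ql3, which was 2.12 against 1.71. Grin2c, the 1 other receptor gene at that level over all neurons, was 0.212 against 0.134 and not past the fold. Glial marker sums, a measure of attached RNA, were 21.7 in the CKO pool and 24.6 in control. The hair cell list had 3 of 8 genes measured, with a summed level of 0.061 and 0.044.

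Grm8 was seen in type Ia and type Ib neurons more often in the CKO pool. In CKO type Ib neurons it had 129 UMIs in 216 cells (level 0.127), against 43 UMIs in 395 control cells (0.0304), a UMI rate ratio of 5.17 (3.64 to 7.49). Both levels were under 0.2, so Grm8 in type Ib was not among the genes compared by fold. After thinning, 25 of 216 CKO type Ib cells had a UMI (11.6%, 7.63% to 16.6%), against 7 of 395 control cells (1.77%, 0.715% to 3.62%). In type Ia neurons the CKO pool had 28 UMIs in 15 of 384 cells and the control pool 0 in 242 cells, a rate at least 5.56-fold higher against a floor of 3 counts over the control cells. Thinned shares were 1.82% and 0%, and the medians of UMIs per cell in type Ia were 50506 and 48726. In type Ic neurons the thinned shares were 56.1% in the CKO pool and 56.4% in control, and in type II neurons 14.5% and 13.4%. The unthinned type II shares were 27.0% and 32.8%, with levels of 0.133 and 0.174.

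The CKO stretches differed among themselves. Of type Ib cells, 30 of 82 in stretch 1 (36.6%) and 19 of 75 in stretch 3 (25.3%) had a Grm8 UMI, but in CKO stretch 4 it was 4 of 59 (6.78%), beside 13 of 173 (7.51%) and 11 of 222 (4.95%) in the control stretches 2 and 5. In type Ia cells, stretch 1 had 9 of 167, stretch 3 had 6 of 198, and stretch 4 had 0 of 19, which allows up to 15.8%. Without stretch 4 the CKO type Ib share was 31.2%, beside 24.5% with it, both unthinned. The class shares of stretch 4 also lay close to those of control stretch 2: 12.1% type Ia, 37.6% type Ib, 35.7% type Ic and 14.6% type II, beside 10.8%, 35.9%, 38.4% and 14.9%. Control stretch 5 had 32.3%, 37.8%, 21.9% and 7.99%, so class shares also differed between the control stretches. Stretches 1 and 3 together account for every Grm8 UMI of the CKO type Ia class.

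Along Calb2, the calretinin gene whose level falls from type Ia to type Ic, Grm8 was confined in control type I neurons to low Calb2. Its control level was 0.881 at 0 to 10 UMIs of Calb2 per 10000, 0.272 at 10 to 50 and 0.0321 at 50 to 100, with 0 UMIs in 51 cells at 100 to 150, 129 cells at 150 to 250 and 113 cells above 250. A count of 0 in the 51 cells allows a level of up to 0.0161. In the CKO pool the levels were 1.07, 0.225, 0.269, 0.192 (99 cells) and 0.0254 (230 cells), with 0 above 250. The bins also hold type Ic cells. The CKO bins at 50 to 100 and 100 to 150 had 102 and 100 Grm8 UMIs. All CKO type Ib cells had 129, so type Ic cells gave part of the UMIs in these bins. Grik4 declined along Calb2 in both pools, from 0.425 to 0.114 in control and from 0.382 to 0.0676 in the CKO pool, and was lower in the CKO pool in 6 of 6 bins. Grin1 went from 2.85 to 2.03 and from 2.57 to 1.80, also lower in 6 of 6 bins. The bins divide the same pools, and how many of all genes were lower in every bin was not counted. CKO type Ib cells with a Grm8 UMI had a Pou4f1 level of 0.736 and those without 0.201, and in control type Ib the levels were 0.476 and 0.142. Pou4f1 encodes a transcription factor that marks type Ic neurons. Their Calb2 levels differed between pools: CKO type Ib cells with a Grm8 UMI had 91.5 and control ones 34.6. The level of Lypd1 in these cells was 0.470 in the CKO pool and 0.840 in control, far under the 28.5 and 35.8 of type Ic neurons.

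**Figure D5:**
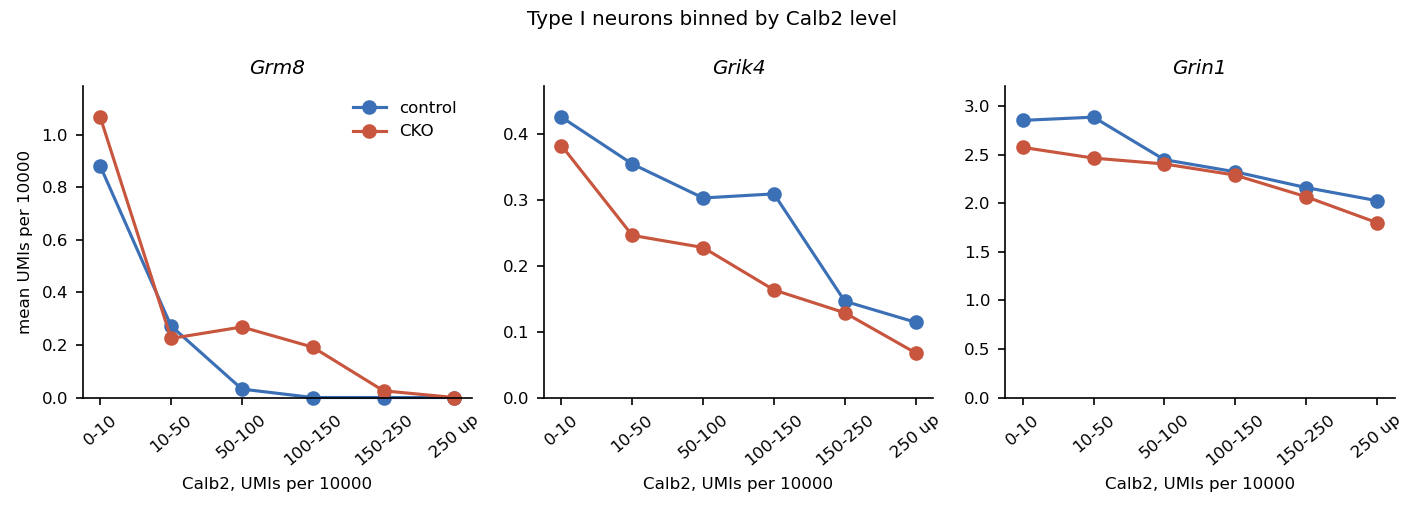
Mean level (UMIs per 10000, axes from 0) of Grm8, Grik4 and Grin1 in type I neurons in 6 bins of Calb2 level (x axis, UMIs per 10000), by genotype pool, with no error bars. CKO Grm8 is 0.269 and 0.192 in the 2 middle bins where control has 0.0321 and 0, and CKO Grik4 lies below control in each bin. The bins include type Ic cells, which gave part of the CKO Grm8 UMIs in the 2 middle bins.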

How the data were processed

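Single-cell libraries came from 2 control and 3 CKO samples, numbered 4 and 5, and 4, 5 and 6, per the labels. Reads were processed with Cell Ranger and Seurat on mm10, per the submitters' processing notes. Versions, and how cells, genes and doublets were filtered, are not given in the sources used here. The authors deposited natural log values, ln(1 + 100000 × UMIs / cell total): this was read from the values, of which 100% gave whole UMI counts within 0.01. A second deposited table gives each cell's genotype.

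UMI counts were recovered from the deposited natural log values with Python 3.11.15, numpy 2.4.6, pandas 2.3.3 and scipy 1.17.1. Levels were means over cells of UMIs per 10000, compared on the log2 scale with a pseudocount of 0.1, for genes at a level of at least 0.2 in either group. No doublet caller was run. Exact 95% intervals are Clopper-Pearson for shares and conditional binomial for rate ratios, and a count of 0 was set at 3 counts for bounds. UMIs count molecules within 1 library and the intervals cover counting error only. The counting was tested on simulated data.

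All 10 receptor genes are named, other receptor and partner genes at a level of at least 0.2 in either pool, and, for the 3 receptor genes with the widest range over control classes, the 3 genes most like each, of which 1 is not reported here. The receptor genes and lists were chosen with earlier results of these data known. Alternatives were other pseudocounts, level minimums, class thresholds, thinning to 10000 UMIs, glia-poor cells and leaving out each column stretch.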

Additional observations from a re-analysis of the deposited data

How the results depend on the processing

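No paired analysis was possible because the cells carry a genotype and no sample, so replicate numbers cannot be tied to them. With 1 pool per genotype, no alternative gives a test, and a column stretch is not known to be a sample. All 15 class differences past the fold kept their sign in every setting run, and 5 of 10 genotype differences over all neurons did. Some settings could not change a sign. Another pseudocount cannot, and leaving out a stretch of the other pool leaves a class difference as it was. Grm8 had 0 UMIs in control type Ia neurons, so settings that keep those cells could not reverse its difference from type Ic. Among the genotype differences, Gria4 ran from -0.16 to 0.05 (log2) as stretches were left out, and Grm8 took the other sign with CKO classes weighted to the control shares (0.20). Counts of receptor genes past the fold moved by 1 to 3. Over all neurons, 0 genes became 1 with a pseudocount of 0.01 (Grik4, -0.65), 3 when 1.2-fold counted as past, an alternative chosen after seeing the data, and 0 to 1 as each stretch was left out. Within type Ib, 0 became 1 with no filter on low levels (Grm8). For type Ic against type Ia, 2 became 1 in both pools with a pseudocount of 0.5 or a level of at least 0.5. For type Ib against type Ia in control, 1 became 0 with a pseudocount of 0.5, a level of at least 0.5, thinning, or a Calb2 threshold of 100, and it was 0 to 1 as stretches were left out. In the CKO pool the same comparison went from 0 to 1 with no filter on low levels, in cells with fewer than 5 glial UMIs per 10000, and 0 to 1 as stretches were left out. For type Ic against type Ib in the CKO pool, 1 became 2 with a pseudocount of 0.01, in glia-poor cells, with a Calb2 threshold of 200 or a Lypd1 threshold of 6, and it was 1 to 2 as stretches were left out. Depth limits Grik2 and Grid1, which had 166 and 74 UMIs in the control pool.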

Other observations

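Grin2b, the NMDA receptor subunit of young neurons, fell under the level of 0.2 and outside the rule for named genes, and was singled out after its values were seen. It had 116 UMIs in the CKO pool (level 0.0316) and 37 in the control pool (0.00875), a UMI rate ratio of 3.41 (2.34 to 5.08). By column stretch its level was 0.0449, 0.0215 and 0.0256 in the CKO stretches 1, 3 and 4, and 0.00562 and 0.0113 in the control stretches 2 and 5. The share of all genes with every CKO stretch above every control stretch is not given here. In the other direction it was 13.3% of the 6678 genes at a level of at least 0.2. After thinning, 9 of 132 CKO type Ic (6.82%), 11 of 216 type Ib (5.09%) and 7 of 384 type Ia neurons (1.82%) had a UMI. In control it was 1 of 314 (0.318%), 4 of 395 (1.01%) and 1 of 242 (0.413%). The control type Ic and type Ia shares lay under the floor of 3 counts (0.955% and 1.24%). No CKO type II neuron of 152 had a UMI, which allows up to 1.97%.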
